A study of Mus musculus with 2 samples.

Results

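The SoxC genes Sox4, Sox11 and Sox12 and the SoxD genes Sox5, Sox6 and Sox13 were examined for open chromatin in the developing mouse face. They were taken by name, as the full membership of these groups, and are 6 of 21938 protein-coding gene records of the annotation used (GENCODE M21, mm10). For each gene, all DNase peaks and hotspots that overlapped the gene body or the 300 kb on either side of it were collected. A promoter site had its edge no more than 500 bp from a start site of the gene, and a distal site lay over 1 kb from every start site of any gene, both counted from the basic set of transcripts. All 6 genes had open chromatin at a promoter in both replicates, as did 67.5% of all protein-coding gene records, and their windows held 490 distal sites that the replicates shared.

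The tissue was embryonic facial prominence, the tissue from which the face forms, of B6NCrl mice at embryonic day 14.5, with both sexes pooled and no treatment. DNase-seq, which reads out where DNase I can cut the chromatin of nuclei, was run on 2 biological replicates, from separate tissue samples recorded under a single donor entry. They formed the only group, so no difference between conditions exists and no test across samples was possible. For each replicate there was a list of peaks, with a score that the authors gave each peak, and a list of broader hotspots.

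Sox proteins bind DNA through an HMG box, which sits in the minor groove and bends the helix. SoxC proteins are transcriptional activators with an activation domain and are known for roles in the survival and differentiation of mesenchymal and neuronal progenitors. SoxD proteins have no known activation domain, pair through a coiled coil and, in the case of Sox5 and Sox6, act beside Sox9 in cartilage, which also forms in the embryonic face.

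Replicate 1 had 304489 peaks and replicate 2 had 218221, and no read counts were at hand, so depth is unknown. Peaks were scored up to 150, with medians of 50 in replicate 1 and 37 in replicate 2, and scores are therefore given side by side and compared by rank within each list. Among marker lists of cell types, a shared promoter site was found at 8 of 8 mesenchymal, 6 of 6 epithelial, 6 of 6 neuronal, 5 of 6 forebrain, 5 of 6 cartilage, 4 of 5 endothelial and 3 of 5 skeletal muscle genes. It was found at 1 of 5 erythroid and at 0 of 5 liver genes, which were listed for comparison. These counts are read against 67.5% of all coding gene records. The lists are short, and the skeletal muscle share was below that level, so the counts do not show which cell types were present. In a bulk sample of this kind, a region open in few cells cannot be told apart from one that is weakly open in many.

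The open promoter sequences themselves are shown first, because the SoxC and SoxD promoters differed in rank and in short motifs. Each is the central 150 bases of the strongest promoter site of the gene, cut back to the part upstream of the GENCODE and RefSeq starts (for Sox11 the RefSeq start lies upstream of the GENCODE one), read 5′ to 3′ on the minus strand, on which all 6 genes lie. Sequences are from the GRCm38 reference, which has the coordinates of mm10. Capitals mark a CCAAT box (CCAAT, or ATTGG on the other strand), the motif of the general factor NF-Y, or a SOX core (ACAAAG or ACAATG, or CTTTGT or CATTGT on the other strand), the motif of HMG-box Sox factors.
Sox4 promoter, chr13:28953714-28953845: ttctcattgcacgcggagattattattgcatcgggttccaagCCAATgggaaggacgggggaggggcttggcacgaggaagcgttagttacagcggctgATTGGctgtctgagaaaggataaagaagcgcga
Sox11 promoter, chr12:27342719-27342855: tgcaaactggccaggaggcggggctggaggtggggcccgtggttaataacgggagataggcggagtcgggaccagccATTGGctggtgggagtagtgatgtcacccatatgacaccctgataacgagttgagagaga
Sox12 promoter, chr2:152398136-152398285: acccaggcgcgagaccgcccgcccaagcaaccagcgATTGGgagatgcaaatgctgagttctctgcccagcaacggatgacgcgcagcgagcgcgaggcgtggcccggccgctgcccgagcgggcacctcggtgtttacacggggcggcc
Sox5 promoter, chr6:144209586-144209735: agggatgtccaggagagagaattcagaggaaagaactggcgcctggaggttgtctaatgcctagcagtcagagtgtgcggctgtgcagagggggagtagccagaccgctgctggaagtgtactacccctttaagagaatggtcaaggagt
Sox6 internal promoter, chr7:115824736-115824885: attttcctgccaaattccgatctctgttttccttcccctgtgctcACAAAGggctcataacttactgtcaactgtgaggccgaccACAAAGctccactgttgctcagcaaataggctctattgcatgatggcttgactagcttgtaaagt
Sox13 promoter, chr1:133424378-133424465: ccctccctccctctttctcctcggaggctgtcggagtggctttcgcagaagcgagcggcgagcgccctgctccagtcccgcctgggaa

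All 3 SoxC promoters held a CCAAT box in the full 150 bases and none of the SoxD promoters did. Sox4 had 3 boxes, of which 2 fall in the stretch shown, and Sox11 and Sox12 had 1 each. Among 14813 coding gene records with a shared promoter site, 29.1% held at least 1 CCAAT box in the same window and 9.63% held 2 or more. Sox6 was the only member whose best promoter site held a SOX core, present 2 times, against 8.07% of these genes. The Sox12 promoter also held the POU octamer ATTTGCAT, written on the strand shown as atgcaaat shortly after its CCAAT box, against 0.952%, and it was the only member with a GC box (GGGCGG), against 56.5%. Both strands were searched for each motif, and a CCAAT box and a SOX core cannot overlap. These matches describe letters and do not show that a factor was bound.

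The SoxC promoters ranked high among open promoters. The promoter site of Sox11 (ENSMUSG00000063632.6, chr12:27334264-27342574) scored 144 in replicate 1 and 137 in replicate 2, and that of Sox4 (ENSMUSG00000076431.4, chr13:28948919-28953713) scored 143 and 134. Averaged over the replicates, these sites ranked at percentile 99.8 and 99.6 of all peaks of their lists, and at percentile 96.9 and 93.9 among the best sites of the 14813 open promoters. Sox12 (ENSMUSG00000051817.8, chr2:152393611-152398063) scored 129 and 125, at percentile 68.3 of open promoters. In both replicates the order was Sox11, Sox4, Sox12, with Sox11 and Sox4 close together.

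The SoxD promoters were open with lower scores. The strongest promoter site of Sox13 (ENSMUSG00000070643.11, chr1:133382303-133424377) scored 103 and 83, at percentile 28.7 of open promoters. That of Sox5 (ENSMUSG00000041540.16, chr6:143828425-144781977) scored 97 and 60, at percentile 19.6. That of Sox6 (ENSMUSG00000051910.13, chr7:115470872-116038796) scored 88 and 62, at percentile 18.5, and lay at an internal start site, at position 115824710. Every SoxC promoter scored above every SoxD promoter in both replicates, which is a description of 3 genes against 3 and not a test. Sox5 and Sox6 changed places between the replicates, so their order was not resolved. With the starts of the basic set, a mean rank of 90 or more was reached by 4 of 6 members, all but Sox5 and Sox6, against 75.1% of open promoters. A mean rank of 99 or more was reached by Sox4 and Sox11, 2 of 6 members, against 16.7%.

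**Figure D1:**
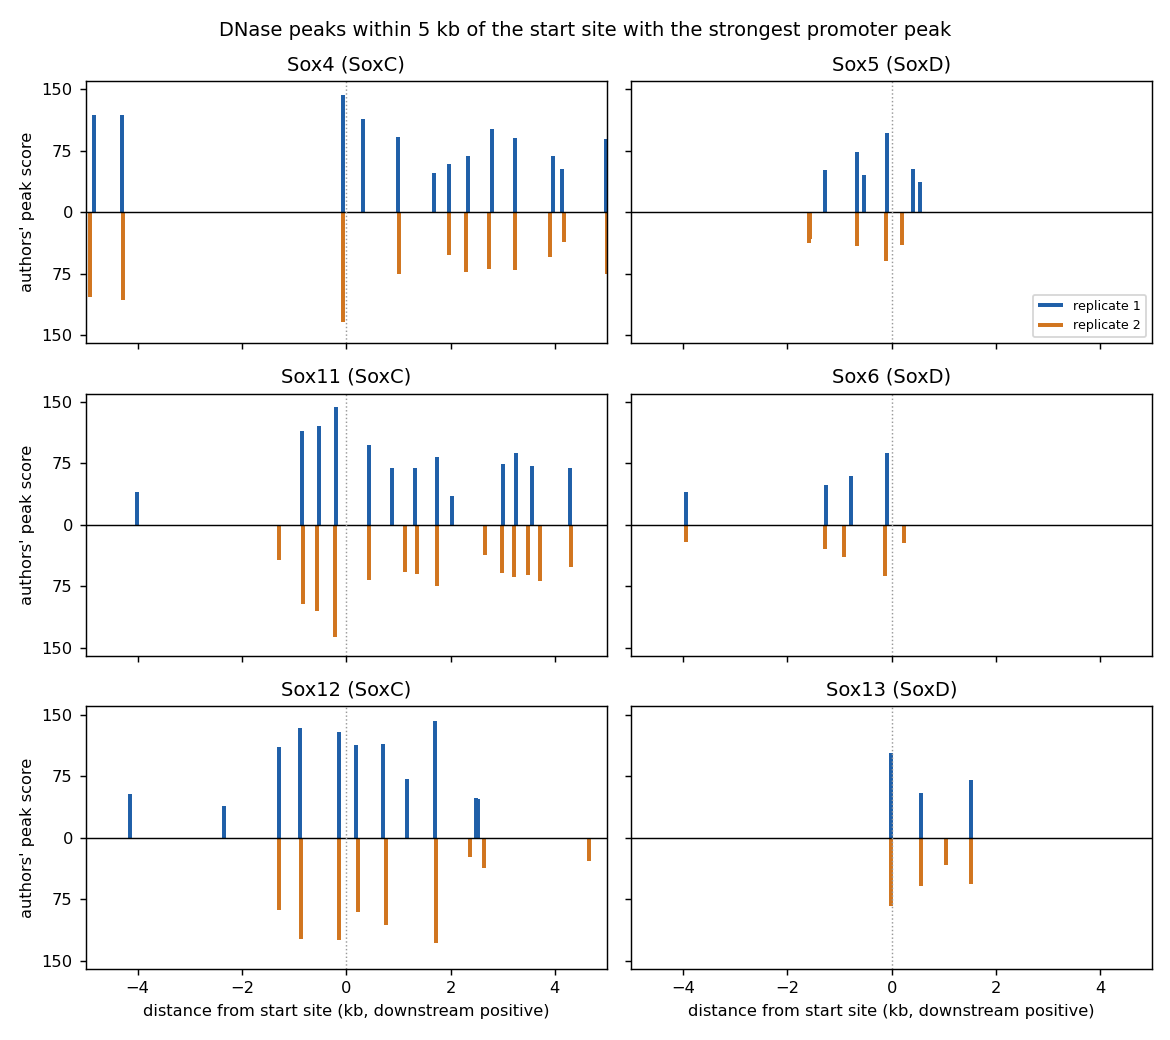
Peaks within 5 kb of the start site with the strongest promoter peak, placed by distance from that start (kb, downstream positive), with the authors' score upward for replicate 1 and downward for replicate 2. The SoxC genes in the left column carry peaks along the gene and upstream, with 10 to 14 peaks per replicate, while the SoxD genes in the right column have 3 to 6. The Sox6 panel is centred on the internal start, so its number depends on that choice. The upstream Sox6 starts, where 6 shared distal sites clustered beside promoter sites, lie outside the panel.

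The open stretch around the SoxC starts was also wide. The hotspot over the best promoter site was 3704 bp wide in replicate 1 and 3881 bp in replicate 2 at Sox12, 3008 and 2984 bp at Sox11, and 1884 and 954 bp at Sox4. At the best SoxD sites the widths were 444 and 674 bp for Sox5, 352 and 487 bp for Sox6, and 389 and 406 bp for Sox13. Over all hotspots of each list, at promoters or not, the median width was 241 and 229 bp and the 99th percentile 1456 and 1556 bp. Among the SoxC genes only the Sox4 hotspot of replicate 2 fell below that percentile. Widths over open promoters alone were not computed, so these values do not rank the SoxC starts among open promoters. The −log10 q-value of the hotspots over the best promoter sites was at its ceiling of 100, except for Sox5 in replicate 2, where it was 4.92. That ceiling was shared by 31.3% and 29.2% of all hotspots in replicates 1 and 2. Wide hotspots were not limited to SoxC genes. At the upstream Sox6 start 116031047, which had weaker sites, the hotspot was 1003 bp wide in replicate 1 and 2282 bp in replicate 2. Its width in replicate 2 was above the 99th percentile, and both widths were above that of Sox4 in replicate 2.

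The SoxC gene bodies, which are short and intronless, were open over much of their length. Hotspots covered 77.4% of the Sox4 gene in replicate 1 and 57.7% in replicate 2. They covered 44.5% and 44.9% of Sox11, and 53.6% and 58.9% of Sox12. Among 7774 coding genes of at most 10 kb the median cover was 3.13% and 1.89%, and the 3 genes ranked between percentile 95.6 and 98.8. The 7774 genes were not limited to those with an open promoter. Promoter hotspots inside a gene count in its cover, so these percentiles partly restate that the SoxC promoters were open. The SoxD genes are longer, and 3.23% and 1.62% of Sox5, 4.69% and 3.80% of Sox6, and 6.62% and 6.30% of Sox13 lay in hotspots.

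Promoter CpG content, like the promoter score, was higher at the SoxC starts than at the SoxD starts. It did not follow the score gene by gene, since Sox12 had the highest ratio and the lowest promoter score of the SoxC genes. In 1000 bp centred on the start, the ratio of observed to expected CpG was 0.91 at Sox11, 0.79 at Sox4, 0.97 and 0.99 at the starts of Sox12 and 0.76 at the upstream start of Sox13. It was between 0.30 and 0.38 at the 5 starts of Sox5 and between 0.12 and 0.52 at the 6 starts of Sox6. Over all coding gene records, each taken at its start of highest ratio only, the median was 0.61, with quartiles of 0.25 and 0.79, so the lower starts of a gene with several have no like background here. The part of CpG content in the promoter scores was not tested.

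Several SoxD start sites had no peak. Of the 18 start sites of the 6 genes, 12 had a shared site within 500 bp, which were all 4 SoxC starts, 4 of 5 of Sox5, 3 of 6 of Sox6 and 1 of 3 of Sox13. The share of all annotated starts with such a site was not computed, and the background of 67.5% counts gene records. The counts therefore only describe these genes. Starts close together, such as the 4 open ones of Sox5, can share a site. At Sox5, the cluster of starts at 144209452 to 144209568 was open, and a start far downstream at 143947106 had no peak in either replicate. At Sox6, peaks lay at the internal start and at the upstream starts 116031047 and 116038744, and none lay at 115846105, 115846140 or 115995086. The downstream starts of Sox13, at 133393218 and 133393270, also had none. A missing peak does not show that a start was closed, since calling depends on depth.

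The 6 members had 16 promoter sites in all. Sox11 had 3, with scores of 97 and 67 at 369 bp into the gene and of 121 and 105 at 442 bp upstream beside the strongest, which lay 122 bp upstream. Sox12 had a second site within the gene with scores of 113 and 91. The second site of Sox5 scored 73 and 41. Sox6 had 6 promoter sites spread over its 3 open starts, and outside the internal start their scores ran from 48 to 77 in replicate 1 and from 26 to 45 in replicate 2. The weaker site of Sox13, with scores of 55 and 59, lay 492 bp from the start, just inside the limit of 500 bp. Just outside it lay sites of Sox12 at 621 bp (scores of 114 and 106) and 793 bp (134 and 124), of Sox6 at 706 bp (60 and 39) and 709 bp (72 and 60), of Sox11 at 762 bp (114 and 96), of Sox6 at 832 bp (75 and 43) and of Sox4 at 908 bp (92 and 75). The Sox12 site at 793 bp outscored its best promoter site in replicate 1 and fell just short of it in replicate 2.

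Transcripts outside the basic annotation added open starts to SoxD genes. At Sox6, the start at 116034513 had a site with scores of 108 and 84 within 500 bp, and the start at 116033602 had 3 sites, of which the strongest scored 100 and 99. Both scored above the best promoter site of Sox6 in the basic set. The longest Sox5 transcripts begin at 144781977, where 3 shared sites reached 65 and 53. These sites are counted as distal in what follows, because distances were measured to the basic set.

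The question of how much open chromatin surrounds these genes was addressed with the windows. Shared distal sites numbered 83 for Sox4, 68 for Sox11, 56 for Sox12, 94 for Sox5, 112 for Sox6 and 77 for Sox13. With only the stronger peaks of each list, the numbers in the same order were 60, 44, 31, 35, 51 and 45, and with replicate 1 alone they were 135, 112, 83, 188, 169 and 117, so Sox5 moved most. The windows differ in length with the gene, from 604 kb for Sox12 to 1554 kb for Sox5, so densities are compared. Sox4 had the densest window, with 13.7 sites per 100 kb, followed by Sox13 with 11.99, Sox11 with 11.2, Sox6 with 9.59, Sox12 with 9.26 and Sox5 with 6.05. The SoxC windows together had 11.4 sites per 100 kb and the SoxD windows 8.41, against 5.15 over the main chromosomes.

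Read against the windows of all coding gene records, built in the same way, 5 of 6 members were among the densest 25% and Sox5 was below the median. The percentile was 97.9 for Sox4, 93.4 for Sox13, 90.02 for Sox11, 79.7 for Sox6, 76.8 for Sox12 and 42.5 for Sox5. The median window had 6.74 sites per 100 kb, with quartiles of 3.98 and 9.08. Over the other processing settings tried, the percentile stayed between 94.0 and 98.8 for Sox4, 89.8 and 95.5 for Sox13, and 83.98 and 93.8 for Sox11. It ran from 65.4 to 81.5 for Sox6, from 67.7 to 84.2 for Sox12 and from 33.8 to 55.7 for Sox5, so Sox6 and Sox12 left the densest 25% under some settings and Sox5 crossed the median. Windows of neighbouring genes overlap, so the ranked windows are not independent.

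**Figure D2:**
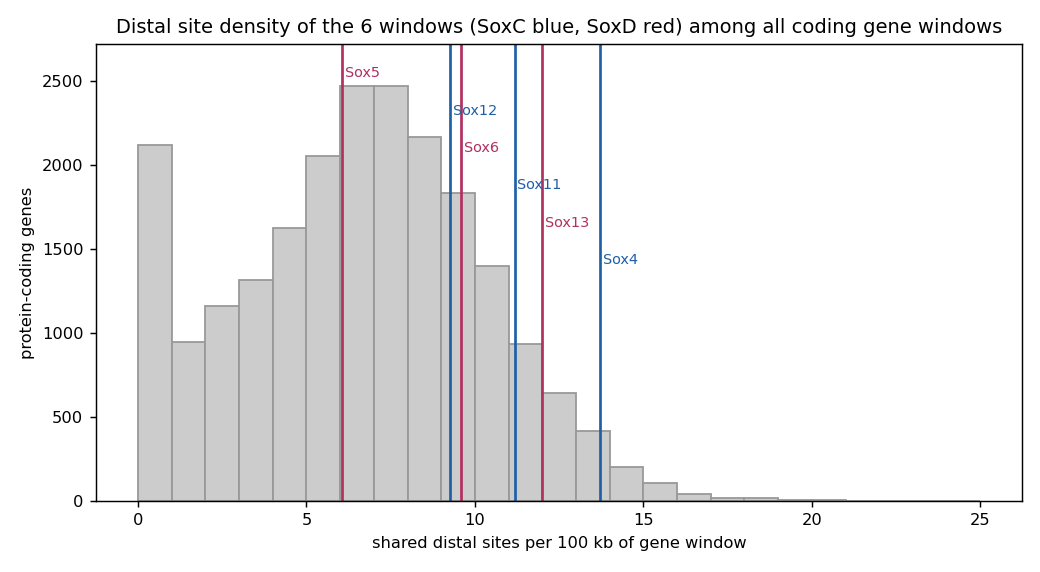
Number of protein-coding genes (vertical axis) by shared distal sites per 100 kb of gene window (horizontal axis), with the SoxC windows as blue lines and the SoxD windows as red lines. Sox4 at 13.7 lies far in the upper tail, and Sox5 at 6.05 lies just below the median of 6.74.

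Hotspots gave a similar picture of cover. They took up 7.56% of the Sox4 window in replicate 1 and 4.69% in replicate 2, 6.28% and 4.03% for Sox11, 6.60% and 6.01% for Sox12, and 6.54% and 4.82% for Sox13. Sox6 had 5.09% and 3.93%, and Sox5 had 3.31% and 2.02%. Hotspots took up 3.18% and 2.19% of the main chromosomes, so the Sox5 window was the only one below this level in a replicate, which was replicate 2.

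The windows differed in how many other genes they held. No other protein-coding gene had a start inside the windows of Sox4 or Sox11, and all 83 and 68 of their distal sites had the member as the nearest coding start. Counted over the genome, 103 shared distal sites were nearest to Sox4 and 99 to Sox11, both at percentile 99.9 of coding gene records. Sox6 was nearest to 82 (percentile 99.7) and Sox5 to 59 (99.3). Sox12 lies in a dense part of chromosome 2 with 24 other coding genes in its window, 12 of them with a shared promoter site, and was nearest to 5 of its 56 distal sites. Among these neighbours was a cluster of beta-defensin genes, which encode antimicrobial peptides and of which Defb29 alone had a shared promoter site. Sox13 shared its window with 13 genes, 8 of them open, and was nearest to 19 sites, while Plekha6 was nearest to 25. The shares of open neighbours of Sox12 and Sox13 were both below the 67.5% of all coding gene records. Nearness was used only to describe position, and the gene that a site acts on is unknown.

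The distal sites also sat in different parts of the windows. Inside the gene body lay 52 of 94 sites for Sox5 and 57 of 112 for Sox6, against 6 each for Sox4, Sox11 and Sox13 and 2 for Sox12. In the Sox4 window 52 of 83 sites were intronic although Sox4 has no intron, because they lay in introns of other genes such as 2610307P16Rik, which is noncoding, and Cdkal1, which is protein-coding. In the Sox11 window 44 of 68 sites were intergenic. Within 100 kb of a start of the member lay 32 sites for Sox6, 30 for Sox13, 27 for Sox4, 25 for Sox11, 22 for Sox5 and 20 for Sox12. For Sox12, 17 of these 20 were within 50 kb.

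**Figure D3:**
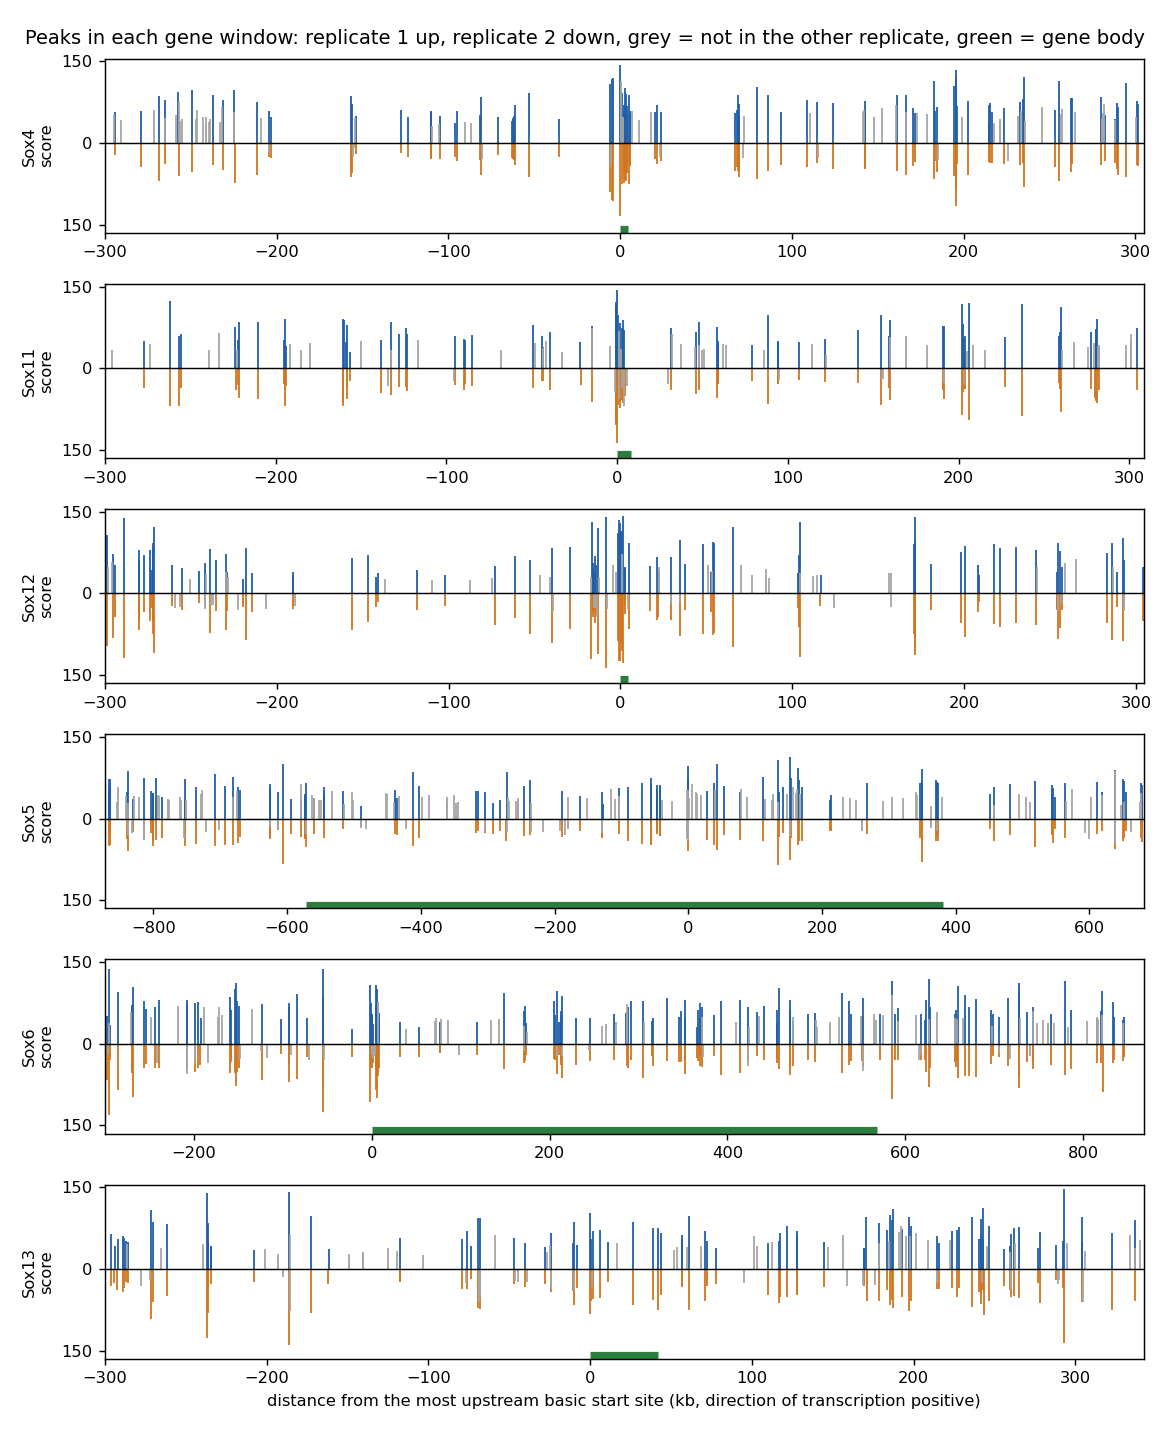
Peaks in the windows by distance from the most upstream start site in the basic annotation (kb, direction of transcription positive), with the authors' score upward for replicate 1 and downward for replicate 2, peaks missing from the other replicate in grey and the gene body in green. Sox4, Sox11 and Sox12 show a tight cluster of strong peaks at the gene with scattered peaks on either side, while in Sox5 and Sox6 the peaks spread along the gene body.

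The tightest groups of distal sites lay at the SoxC genes and at upstream SoxD starts. At most 9 shared distal sites fell within 10 kb in the Sox4 window, in the gene and just past its end. The densest 10 kb of Sox11 held 6 sites, within the gene. That of Sox12 held 6, upstream of the gene and reaching into Zcchc3. In the Sox6 window 6 sites clustered around the upstream starts, between 116033110 and 116040350, and in the Sox5 window 5 sites lay between 144781800 and 144788490, at the upstream end of its gene body. The densest 10 kb of the Sox13 window, with 6 sites, lay within Atp2b4, a calcium pump gene, and not at Sox13.

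The strongest distal sites lay at varied distances from the promoter, and 2 are printed below because they rank highest in their windows and contrast in letters. In the Sox4 window the strongest distal site, 196 kb downstream in an intron of 2610307P16Rik, scored 135 and 115. The next, with scores of 119 and 107 and of 118 and 104, formed a pair 4.20 and 4.76 kb upstream of the gene. In the Sox12 window the strongest site lay 8.13 kb upstream and scored 141 and 137, above the Sox12 promoter in both replicates. The sequences are on the plus strand with capitals as before, and the Sox12 site held 2 CCAAT boxes while the Sox4 site held none and no SOX core.
Sox4 distal, chr13:28757876-28758025: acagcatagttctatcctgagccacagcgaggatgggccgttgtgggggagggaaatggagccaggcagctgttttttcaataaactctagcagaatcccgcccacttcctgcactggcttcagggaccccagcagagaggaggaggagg
Sox12 distal, chr2:152406196-152406345: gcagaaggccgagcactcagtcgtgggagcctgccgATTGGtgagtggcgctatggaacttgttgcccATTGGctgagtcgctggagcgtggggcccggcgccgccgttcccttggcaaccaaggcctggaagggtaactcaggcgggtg

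A further Sox12 site, in its exon 1.60 kb from a start, scored 142 and 128, and a site 13.1 kb upstream, nearest to Zcchc3, scored 121 and 112. In the Sox11 window the leading sites scored 119 and 95, 118 and 88, and 118 and 86, and all 3 lay 202 to 237 kb downstream within the noncoding gene Gm9866. Sox5 had its top sites in its own introns, with scores of 107 and 85 at 128 kb and of 113 and 76 at 110 kb from the nearest of its starts. The third site, with scores of 100 and 83, had the start of Bcat1, an enzyme of branched-chain amino acid metabolism, as its nearest in the basic set, although it lay closer to the Sox5 start at 144781977 outside that set. Sox6 had an intergenic site beyond its far end with scores of 115 and 101, 371 kb from its nearest start. Its next sites scored 109 and 107 at 1.51 kb and 100 and 99 at 1.99 kb from a start. The strongest sites in the Sox13 window were nearest to other genes, with scores of 109 and 91 near Atp2b4, 98 and 80 near Snrpe, and 111 and 71 in an intron of Plekha6.

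Strong distal sites were about as frequent as elsewhere. A mean rank of 90 or more was reached by 33 of 490 window sites (6.73%), against 5.99% of all shared distal sites. By window these were 9 for Sox6, 7 for Sox4, 6 for Sox12, 5 for Sox11 and 3 each for Sox5 and Sox13.

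Agreement between the replicates varied by window. Replicate 1 had 933 peaks in the 6 windows, of which 63.9% (exact 95% interval 60.7 to 67.0) had an overlapping partner in replicate 2, against 59.2% of all its peaks. Replicate 2 had 735, of which 81.4% (78.4 to 84.1) had a partner in replicate 1, against 83.6%. Sox5 had the lowest share in both replicates, with 51.7% (44.7 to 58.7) and 74.5% (66.4 to 81.4), and both intervals lay below the level of all peaks. Sox12 had the highest share in replicate 1, with 73.2% (64.4 to 80.8), and Sox4 in replicate 2, with 90.4% (83.0 to 95.3). The interval of Sox6 in replicate 1 (63.1 to 76.4, around 70.1%) also lay above the level of all peaks. Intervals cover counting error only and treat neighbouring peaks as independent.

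**Figure D4:**
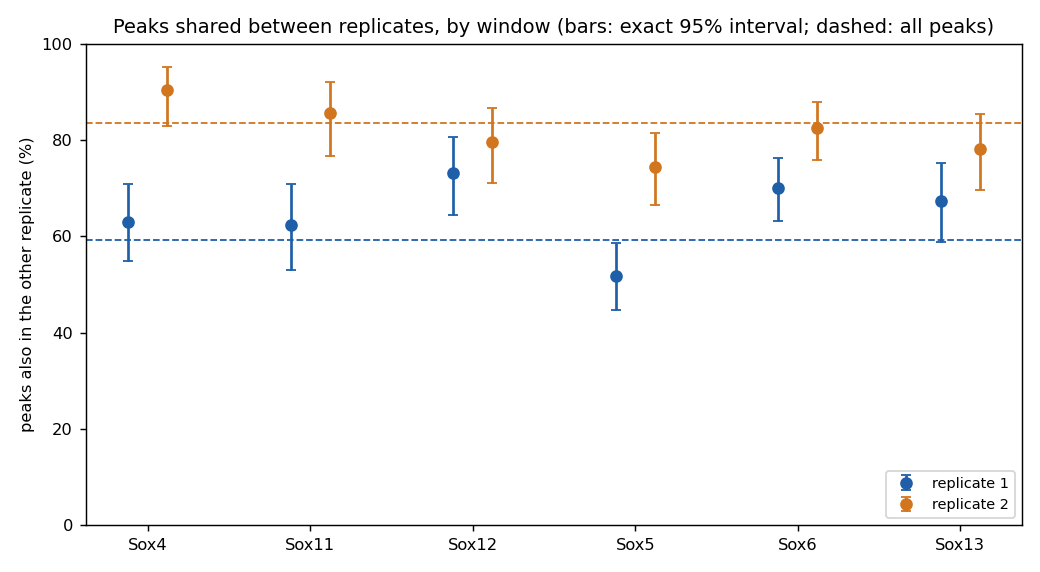
Percent of the peaks in each window that overlap a peak of the other replicate, for replicate 1 (blue) and replicate 2 (orange), with exact 95% binomial intervals as bars and the level of all peaks as dashed lines. Sox5 lies below both dashed lines, at 51.7% and 74.5%.

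The excess of peaks in replicate 1 was also uneven. It had 207 peaks against 141 in the Sox5 window, 149 against 104 for Sox4 and 122 against 91 for Sox11, which are ratios of 1.47, 1.43 and 1.34. The ratios were 1.17 for Sox13, 1.15 for Sox6 and 1.09 for Sox12. The median over coding gene windows was 1.30, with quartiles of 1.17 and 1.45, so Sox5 lay above and Sox6 and Sox12 below these quartiles. Over shared sites, Spearman's rho between the replicates' scores ran from 0.718 for Sox5 (103 sites) to 0.920 for Sox12 (87 sites). The sites of a window come from the same 2 libraries, and rho is given as a description.

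Some peaks were found in a single replicate. Beside the Sox4 promoter site, a peak 0.32 kb into the gene scored 114 in replicate 1 and had no partner in replicate 2. Over the main chromosomes, 59.2% of replicate 1 peaks and 83.6% of replicate 2 peaks, distal or not, had a partner in the other list. The share for all distal peaks alone was not computed, so the next counts have no like background. Of distal peaks in the windows, 313 of 814 in replicate 1 and 119 of 622 in replicate 2 had no partner in the other list. The strongest of these distal peaks in replicate 1 were a peak beyond the far end of Sox6 at chr7:115453256-115453405, with a score of 89, and a peak downstream of Sox5 at chr6:143571456-143571605, with a score of 88. Each lay close to a peak of replicate 2. The Sox6 peak lay beside the strongest shared distal site of its window, at chr7:115453536-115453725, and the Sox5 peak beside a peak of replicate 2 at chr6:143571256-143571405 with a score of 47. In replicate 2 the strongest was in the Sox11 exon, at chr12:27338776-27338925, with a score of 69. That peak lay beside a shared distal site at chr12:27338936-27339165, with scores of 72 and 61. The Sox5 start at 144204057, outside the basic set, had a peak scored 64 in replicate 1 and none in replicate 2.

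SOX cores were examined in the distal sites because these genes encode Sox proteins. In 150 bp at the site centre, 113 of 490 window sites held a SOX core (23.1%, exact 95% interval 19.4 to 27.0), against 19.9% of all shared distal sites. The share was 27.2% (22.1 to 32.8) of 283 sites in the SoxD windows and 17.4% (12.5 to 23.3) of 207 in the SoxC windows. By gene it was 30.9% (21.7 to 41.2) for Sox5, 28.6% (20.4 to 37.9) for Sox6, 20.8% for Sox13, 19.1% for Sox11, 17.9% for Sox12 and 15.7% for Sox4. The intervals of Sox5 and Sox6 lay above the share of all distal sites and those of the other 4 windows included it. Median GC content was 48.0% in Sox5 sites and 49.3% in Sox6 sites, against 48.7% in all distal sites and between 49.3% and 54.0% in the other windows. The part of base composition in the share was not tested.

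**Figure D5:**
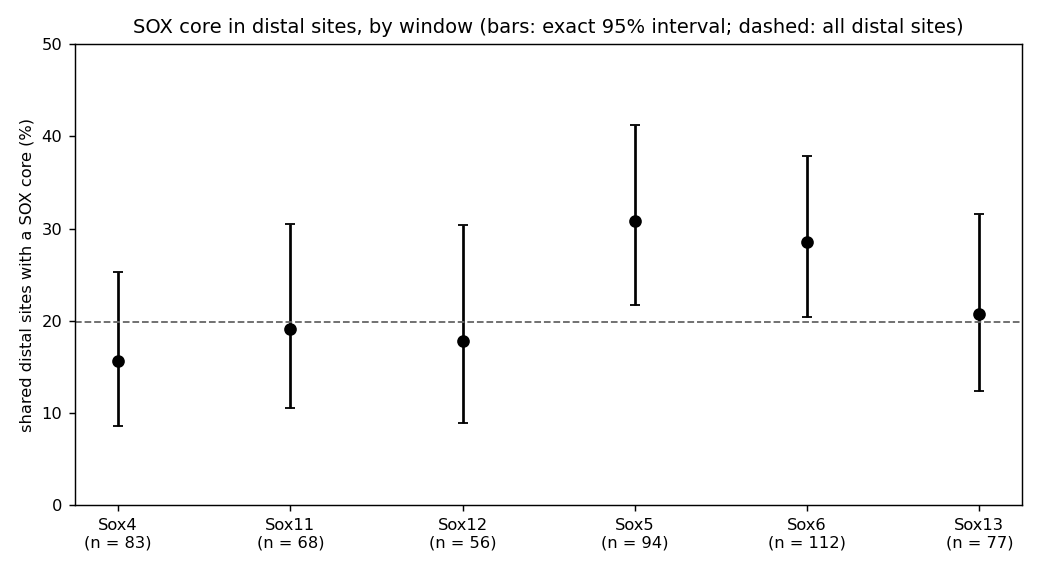
Percent of shared distal sites with a SOX core in each window, with exact 95% binomial intervals as bars, the number of sites under each name and the share of all distal sites as a dashed line. Sox5 at 30.9% and Sox6 at 28.6% lie above the line, and the other 4 intervals cross it.

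Sites with several SOX cores were most numerous in the Sox6 window. At least 2 cores were found in 21 of 490 window sites (4.29%), against 2.37% of all distal sites, and these were 9 in the Sox6 window, 5 in that of Sox5, 2 each for Sox11, Sox12 and Sox13, and 1 for Sox4. The site with most, 4 cores, lay beyond the far end of Sox6 and scored 67 and 45. A site upstream of Sox13, 69.1 kb from its start, had 3 cores and scored 93 and 72. Both are shown on the plus strand, with SOX cores and CCAAT boxes in capitals, to give the spacing of the cores.
Sox6 distal, chr7:115411036-115411185: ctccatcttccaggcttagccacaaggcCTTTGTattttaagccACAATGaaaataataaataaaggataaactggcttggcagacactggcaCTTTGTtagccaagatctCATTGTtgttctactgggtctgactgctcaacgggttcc
Sox13 distal, chr1:133493456-133493605: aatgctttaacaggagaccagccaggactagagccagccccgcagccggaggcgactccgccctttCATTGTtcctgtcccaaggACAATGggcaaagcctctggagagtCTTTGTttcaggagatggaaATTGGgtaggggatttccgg

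For 18 of the other 20 motifs searched, the interval of the window sites included the share of all distal sites. The exceptions were the AP-1 motif of Fos and Jun factors (TGANTCA), found in 3.27% of the window sites (1.88 to 5.25) against 6.58% of all distal sites, and the GATA motif (AGATAA), found in 3.47% (2.03 to 5.50) against 5.52%. The CCAAT box was found in 21.3% (15.9 to 27.5) of SoxC window sites and 14.1% (10.3 to 18.7) of SoxD window sites, against 19.2%. Intervals were not adjusted for the number of motifs, and overlaps between different motifs were not removed.

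The promoters of the remaining Sox genes give a scale for these values. A shared promoter site was found at 10 of 14, against 67.5% of all coding gene records. Sox9, the cartilage regulator, had scores of 140 and 116, Sox8 of 122 and 106, and Sox2, a factor of neural and epithelial progenitors, of 117 and 101. Sox21 (100 and 70), Sox30 (100 and 87), Sox15 (91 and 83), Sox1 (77 and 59), Sox18 (76 and 56), Sox14 (71 and 49) and Sox10 (51 and 19) followed. Sox17 and Sox3 had promoter peaks scored 47 and 42 in replicate 1 and none in replicate 2, and Sox7 and Sry had none. Sox11 and Sox4 had the highest promoter scores of all Sox genes measured in both replicates.

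For genes linked to these factors, counts are again read against 67.5% of all coding gene records. Of 3 genes linked to SoxC, all had a shared promoter site, with scores of 115 and 95 for Tubb3 (a neuronal tubulin), 93 and 80 for Tead2 (a Hippo pathway factor) and 62 and 34 for Dcx (a microtubule protein of migrating neurons). Of 10 cartilage genes linked to SoxD and Sox9, 7 had a shared promoter site, a share close to that of all genes. The scores were 108 and 81 at Hapln1, a link protein of cartilage matrix, and 85 and 74 at Col2a1, its main collagen. Acan, the main proteoglycan, had 49 and 55, and Col11a2 had 87 and 44. The remaining open ones were Col9a2 with 66 and 47, Col9a1 with 51 and 29, and Col9a3 with 50 and 41. Cnmd and Comp had no promoter peak, and at Matn1 the peaks of the replicates, scored 62 and 25, lay apart from each other.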

How the data were processed

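DNase-seq of 2 replicates of 1 group was analysed. Per the descriptions deposited with the lists, the authors called peaks and hotspots per replicate on filtered alignments, without pooling. The deposited peak value is a score with no stated normalization, used only to rank and describe peaks within a list. The deposited hotspot value is the −log10 of a q-value, per the labels of its format. The aligner and the caller are not stated in the labels or file descriptions used, and depth is unknown. Instruments are listed for replicate 1 only, so a sequencing batch and the replicate cannot be told apart.

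Regions off chromosomes 1 to 19, X and Y and repeated coordinates were dropped. In replicates 1 and 2, 304233 and 217980 peaks were used, with 277933 and 198482 hotspots. Peaks overlapping by at least 1 bp between replicates were merged into 177440 shared sites, 140271 of them distal, and 140270 were searched for 21 motifs on both strands of 150 bp. Start sites were those of the basic GENCODE M21 set. Percentiles were taken among 21938 coding gene records. Intervals are exact (Clopper-Pearson) 95% intervals. The code recovered 8 of 8 known answers on simulated data. Python 3.11.15, pandas 2.3.3, scipy 1.17.1 and pysam 0.24.0 were used, and coordinates are 1-based.

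Named in each window were all promoter sites of the member, the 3 distal sites of highest mean rank and the 2 strongest distal peaks of each replicate that the other lacked, of which the strongest are given, and, beyond the members, fixed gene lists and window neighbours. Sites with several SOX cores and starts outside the basic set were chosen after their values were seen. The members and lists were chosen with earlier results of these data known. Alternatives were a 50% overlap, stronger peaks, hotspots, wider promoters, flanks of 100 kb, single replicates and lists of equal length. Starts of all annotated transcripts were an alternative chosen after seeing the data.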

Additional observations from a re-analysis of the deposited data

How the results depend on the processing

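All 6 members kept a promoter site under every alternative run for it. With wider promoters or the starts of all annotated transcripts this could not have been otherwise, because these settings include the main one. With 1 replicate alone, only a peak of that replicate was needed, and the site was not a shared one. Each member had a promoter peak in each replicate in the main result, so this outcome was also fixed in advance. The 490 shared distal sites became 266 with only peaks at or above the median score of their list and 242 with flanks of 100 kb, and ranged from 601 to 804 when 1 replicate was used alone (601 without replicate 1 and 804 without replicate 2). The number of sites follows the length of the lists and windows by construction. Of all peaks in the windows, 71.6% were shared, which became 65.3% when 50% of each peak had to overlap and 74.1% with lists of equal length. The share of distal sites with a SOX core, 23.1%, became 29.3% with flanks of 100 kb, and the cause was not tested. The median percentile of the 6 windows, 84.8, stayed between 81.8 and 87.2. With the starts of all annotated transcripts, an alternative chosen after seeing the data, there were 466 distal sites and 22.7% held a SOX core. No paired analysis was possible because both replicates belong to a single group. Unknown read depth limits every statement on missing peaks, and 2 replicates give no test.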
